A study of Homo sapiens with 12 samples.

Results

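The genes SP1, SP2, SP3 and SP4 encode the zinc finger transcription factors that give the Sp family its name. Every probe set whose platform annotation gives 1 of these 4 symbols alone was taken, whatever its values. This gave 14 probe sets, 4 for SP1, 3 for SP2, 5 for SP3 and 2 for SP4, of the 54613 probe sets tested, and 4 genes of the 19775 that have a probe set of their own. A probe set is a group of short probes against a stretch of a gene's transcripts, so the sets of a gene can follow different transcripts or transcript ends.

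RNA was measured in 4 groups of established human Ewing sarcoma lines: TC32 with mithramycin, TC32 control, TC71 with mithramycin and TC71 control. Mithramycin was given at 100 nM for 6 h and the controls received solvent alone. The labels call the 3 samples of each group biological replicates, and each was run on its own one-colour array, which makes 12 arrays. No genotype of either line beyond its name was used, and each line is a single source, so differences between TC71 and TC32 are differences between those lines alone.

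Mithramycin is an antibiotic that binds GC-rich DNA in the minor groove and can displace Sp proteins from it. Sp proteins bind GC boxes, short GC-rich elements near the starts of many genes, through 3 zinc fingers at their carboxyl end. SP1 and SP3 are made in almost all cells and share target sites, SP4 is best known from neurons, and SP2 is found in mouse cells at many promoters together with NF-Y, the factor that binds CCAAT.

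The stretches around the starts of these genes are shown because GC-rich DNA is where mithramycin binds and because the SP1 gene is itself known to be controlled through GC boxes. RefSeq start windows of the build GRCh38.p14, from 250 bases before to 50 bases after an annotated start, were found for all 4 genes, 7 windows in all. Capitals mark GC boxes, GGGCGG or its reverse complement CCGCCC.
SP1, outermost start: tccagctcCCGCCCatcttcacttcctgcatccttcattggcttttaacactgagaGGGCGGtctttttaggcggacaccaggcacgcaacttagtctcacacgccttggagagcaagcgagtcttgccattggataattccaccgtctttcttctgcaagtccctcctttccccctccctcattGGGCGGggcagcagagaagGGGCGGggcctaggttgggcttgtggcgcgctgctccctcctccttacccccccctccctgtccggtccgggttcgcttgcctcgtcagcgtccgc
SP1, other start: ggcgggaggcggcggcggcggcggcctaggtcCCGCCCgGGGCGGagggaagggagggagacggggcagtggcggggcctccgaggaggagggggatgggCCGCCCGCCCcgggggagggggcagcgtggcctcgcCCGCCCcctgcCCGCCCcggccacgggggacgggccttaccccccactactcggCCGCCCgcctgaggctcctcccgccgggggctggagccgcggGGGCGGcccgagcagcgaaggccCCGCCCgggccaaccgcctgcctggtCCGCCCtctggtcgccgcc
SP2, outermost start: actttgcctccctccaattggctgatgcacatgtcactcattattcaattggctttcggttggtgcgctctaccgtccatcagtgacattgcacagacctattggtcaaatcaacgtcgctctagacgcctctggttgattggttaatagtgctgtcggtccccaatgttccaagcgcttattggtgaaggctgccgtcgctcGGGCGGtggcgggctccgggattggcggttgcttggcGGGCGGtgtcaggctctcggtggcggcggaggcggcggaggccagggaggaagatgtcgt
SP3, outermost start: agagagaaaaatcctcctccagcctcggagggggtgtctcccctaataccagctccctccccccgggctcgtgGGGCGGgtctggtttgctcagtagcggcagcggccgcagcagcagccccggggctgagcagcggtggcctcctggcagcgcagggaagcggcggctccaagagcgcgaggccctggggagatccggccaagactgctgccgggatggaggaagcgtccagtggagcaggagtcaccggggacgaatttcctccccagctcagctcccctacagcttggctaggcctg
SP4, outermost start: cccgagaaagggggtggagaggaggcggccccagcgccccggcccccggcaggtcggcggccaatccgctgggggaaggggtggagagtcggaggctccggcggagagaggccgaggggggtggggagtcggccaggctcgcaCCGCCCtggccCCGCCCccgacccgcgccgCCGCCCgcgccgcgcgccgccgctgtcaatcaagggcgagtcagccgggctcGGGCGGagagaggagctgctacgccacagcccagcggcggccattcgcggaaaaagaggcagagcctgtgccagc

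The SP1 window at its outermost start, chr12:53379926-53380225 on the + strand, held 4 GC boxes and 60.7% G and C. The other SP1 window, chr12:53380394-53380693 on the + strand, held 10 GC boxes, 2 forward and 8 reverse, and 83.3% G and C. Of the 35116 RefSeq windows of the same 300 bases, 45% held at least 1 GC box on either strand, 9.06% at least 4 and 0.214% at least 10, and their median G and C content was 58.7%. The SP2 window, chr17:47895986-47896285 on the + strand, held 2 GC boxes, a number reached by 26.7% of windows. The SP2 window also held 8 matches to CCAAT or its reverse complement ATTGG, which can overlap each other, and 0.0057% of windows held at least 8. The SP1 outermost window held 3 such matches and 3.26% of windows held at least 3. For SP3, the outermost window chr2:173965653-173965952 on the - strand held 1 GC box, while the windows chr2:173963831-173964130 and chr2:173965324-173965623, also on the - strand, held 2 each. The SP4 window, chr7:21427833-21428132 on the + strand, held 4 GC boxes and 76.7% G and C. A match is a description of letters in the window and not a bound site.

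**Figure D1:**
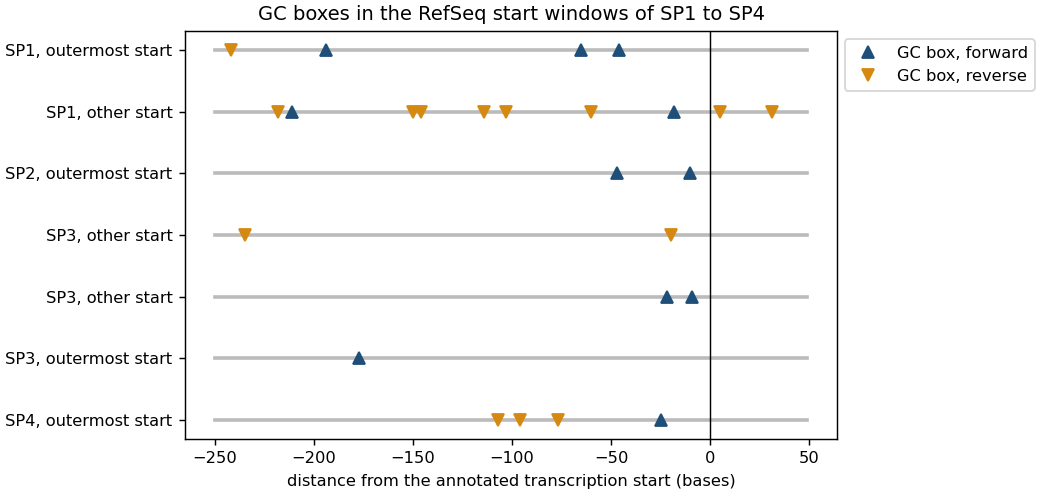
GC boxes in the 7 RefSeq start windows of SP1 to SP4, as distance in bases from the annotated start (line at 0). Triangles pointing up are GGGCGG on the strand of the gene and triangles pointing down are its reverse complement. The other start of SP1 holds 10 boxes, 8 of them reverse, and the outermost start of SP3 holds 1.

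The deposited values are log2 values, so a difference of 1 is a doubling, and values below are on that scale. They compare samples at 1 probe set and do not compare levels between probe sets or genes. Array medians lay between 4.3788 and 4.4688, and arrays of the same group correlated at 0.9948 to 0.9976 over the probe sets. All 8 measured Ewing sarcoma markers had a mean of at least 6, while 0 of 5 blood and 0 of 3 endothelial markers did, as did 3 of 7 fibroblast markers (DCN, COL3A1 and THY1) and 1 of 5 epithelial markers (KRT18). On the beta-actin control sets, the 3' minus 5' difference, which widens where RNA is shortened or copied incompletely, averaged 0.603 ± 0.084 with mithramycin and 0.713 ± 0.035 in controls of TC32 (SD, n = 3 each, exact permutation p = 0.2). In TC71 it averaged 0.881 ± 0.101 with mithramycin and 1.454 ± 0.483 in controls (SD, n = 3 each, exact permutation p = 0.1, the lowest that 3 against 3 allows). Among the TC71 controls, replicate 1 was at 2.0, against 1.081 and 1.282 in the others. Changes of Sp probe sets called in TC71 are therefore also given without that array. In such bulk RNA, fewer cells of a type and less RNA per cell cannot be told apart.

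With mithramycin, transcripts of all 4 Sp genes were lower in TC32 at the brightest probe set of each, and those of SP1 and SP2 were lower in TC71 as well. The falls were of 0.28 to 0.55 log2 units at these sets in TC32, which leaves most of the signal in place. A probe set of SP3 went the other way and rose in both lines. Of the 14 sets, 8 were called lower and 1 higher in TC32, where 16.9% of all probe sets were lower and 19.4% higher (limma, adjusted p under 0.05). In TC71, 4 were lower and 2 higher, where 13.7% of all sets were lower and 14.5% higher. The median change of the 14 sets was -0.32 in TC32, against 0.06 over all sets, and -0.05 in TC71, against 0.05 over all sets. The mean of the effects in both lines called 7 of the 14 sets lower and 1 higher, with 19.0% of all sets lower and 26.4% higher. These splits depend on the scale of the arrays: with arrays centred on their hybridization controls, 20.0% of all calls in TC32 were higher, against 53.6% as deposited, and in TC71 64.7%, against 51.5%, while in the mean of both lines it was 45.1%, against 58.2%.

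The 6 sets with a mean of at least 6 over the arrays (2 of SP1, 1 of SP2, 2 of SP3 and 1 of SP4) were all lower in TC32 and 4 of the 6 were lower in TC71. Among all sets of that brightness 31.3% were lower in TC32 and 25.4% in TC71. The other 8 sets, which include 7 below the lowest array median, had a call in TC32 at 3 of them and in TC71 at 2, where 27.3% and 19.9% of all sets with a mean under 6 were called in either direction. The size of a change is rough at such dim sets, since signal near background may move little.

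**Figure D2:**
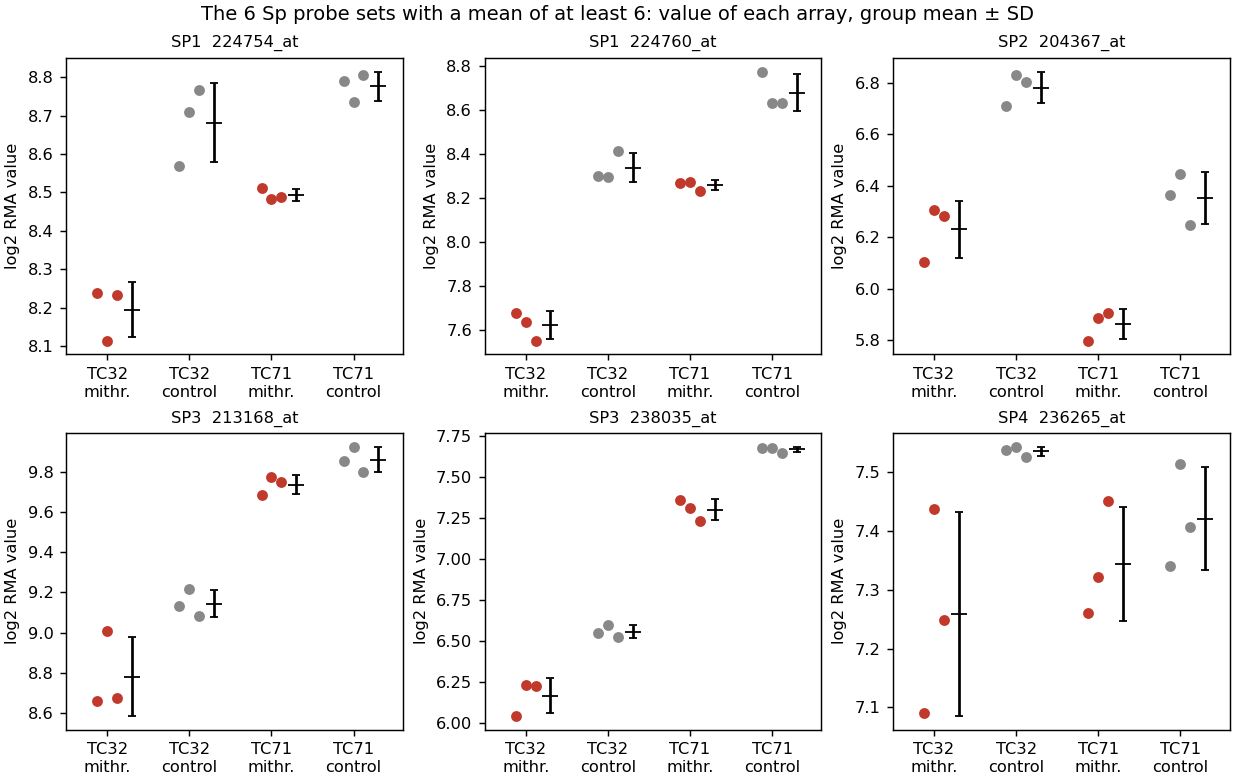
Log2 values of the 6 bright Sp probe sets (mean of 6 or more), 1 point per array, with the group mean ± SD (n = 3) beside the points. In TC32 the mithramycin arrays lie below all control arrays at each of these sets, and in TC71 they do so at the 2 SP1 sets, the SP2 set and both SP3 sets. The share of all probe sets that separate in this way was not counted. SP3 set 213168_at separates in TC71 without a call (limma adjusted p = 0.344).

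SP1, the founding member and a general activator at GC boxes, had 2 bright sets that fell in both lines. At set 224754_at, the arrays of TC32 with mithramycin read 8.24, 8.11 and 8.23, against 8.57, 8.71 and 8.77 in TC32 controls. The TC71 arrays read 8.51, 8.48 and 8.49 with mithramycin, against 8.79, 8.73 and 8.81 in controls. The groups did not overlap in either line, and the treated TC32 arrays were lower than the treated TC71 arrays. The changes were -0.49 ± 0.07 in TC32 (SE, limma adjusted p = 8.99e-05) and -0.28 ± 0.07 in TC71 (SE, limma adjusted p = 0.00681). Without TC71 control replicate 1 the TC71 change was -0.28 (limma adjusted p = 0.0239). Centring each array on its hybridization controls made it -0.20 in TC71 (limma adjusted p = 0.178), and with the beta-actin value as a covariate, an alternative chosen after seeing the data, it was -0.28 (limma adjusted p = 0.079).

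The other bright SP1 set, 224760_at, moved further. It read 7.68, 7.64 and 7.55 in TC32 with mithramycin, against 8.30, 8.30 and 8.41 in TC32 controls. In TC71 it read 8.27, 8.28 and 8.23 with mithramycin, against 8.78, 8.63 and 8.63 in controls. Again no treated array reached a control array of its line. The changes were -0.72 ± 0.07 in TC32 (SE, limma adjusted p = 2.51e-06), a fall to 0.609 times the control signal, and -0.42 ± 0.07 in TC71 (SE, limma adjusted p = 0.000355). Without TC71 control replicate 1 the TC71 change was -0.37 (limma adjusted p = 0.00229). Within arrays, set 224760_at changed by 0.18 log2 units more than set 224754_at (mean difference -0.18, two-sided exact permutation test within lines, p = 0.005, the smallest possible, adjusted p = 0.01 over 10 pairs of sets).

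The 2 dim SP1 sets were called lower in TC32 and not called in TC71. Set 214732_at read 2.98, 3.43 and 2.97 in TC32 with mithramycin, against 3.90, 3.53 and 3.61 in TC32 controls, without overlap (-0.56 ± 0.13 SE, limma adjusted p = 0.00448). Its TC71 arrays overlapped, at 3.72, 3.85 and 3.78 with mithramycin against 3.60, 3.88 and 3.75 in controls (0.04, limma adjusted p = 0.87). Set 1553685_s_at overlapped between groups in TC32, at 3.46, 3.99 and 3.83 with mithramycin against 3.96, 4.48 and 4.33 in controls (-0.50 ± 0.17 SE, limma adjusted p = 0.032). That call was lost in 5 of 20 alternatives, with an adjusted p of up to 0.136. Its TC71 value was 0.04 (limma adjusted p = 0.888). Neither set's difference between lines passed the test, at 0.59 (limma adjusted p = 0.0776) and 0.54 (limma adjusted p = 0.232), TC71 effect minus TC32 effect.

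SP2, the member found with the CCAAT factor NF-Y in mouse cells, had 1 set with a mean of at least 6, and it fell in both lines. Set 204367_at read 6.10, 6.31 and 6.28 in TC32 with mithramycin, against 6.71, 6.83 and 6.81 in TC32 controls. In TC71 it read 5.80, 5.89 and 5.91 with mithramycin, against 6.36, 6.45 and 6.25 in controls. The groups did not overlap in either line. The change was -0.55 ± 0.08 in TC32 (SE, limma adjusted p = 9.17e-05) and -0.49 ± 0.08 in TC71 (SE, limma adjusted p = 0.000321). The difference of these effects was 0.06 ± 0.11 (SE, limma adjusted p = 0.841). The fall was called in every alternative fit, with values of -0.70 to -0.40 in TC32 and -0.54 to -0.40 in TC71, and was -0.48 in TC71 without control replicate 1.

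The other 2 SP2 sets were among the dimmest of the 14 and had no call in either line. Set 237795_s_at lay between 2.70 and 2.83 in TC32 with mithramycin, against 2.64 to 2.93 in TC32 controls, and between 2.71 and 2.77 in TC71 with mithramycin, against 2.76 to 2.78 in TC71 controls. Set 211736_at lay between 2.26 and 2.59 in TC32 with mithramycin, against 2.29 to 2.60 in TC32 controls, and between 2.32 and 2.51 in TC71 with mithramycin, against 2.43 to 2.73 in TC71 controls. Their percentiles of mean signal among all sets were 18.6 and 13.1.

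SP3, which shares sites with SP1 and can activate or repress, had probe sets called in opposite directions. At the brightest, 213168_at, the TC32 arrays read 8.66, 9.01 and 8.67 with mithramycin, against 9.13, 9.22 and 9.08 in controls. The TC71 arrays read 9.69, 9.78 and 9.75 with mithramycin, against 9.86, 9.93 and 9.80 in controls. The change of -0.36 ± 0.09 in TC32 was called (SE, limma adjusted p = 0.00639). The change of -0.12 ± 0.09 in TC71 was not (SE, limma adjusted p = 0.344, and -0.13 without TC71 control replicate 1), although all treated arrays were below all controls. The difference of the effects, 0.24, did not pass the test (limma adjusted p = 0.348).

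The second SP3 set, 238035_at, was lower in both lines. It read 6.04, 6.23 and 6.23 in TC32 with mithramycin, against 6.55, 6.60 and 6.52 in TC32 controls, and 7.36, 7.31 and 7.23 in TC71 with mithramycin, against 7.68, 7.68 and 7.65 in TC71 controls. The changes were -0.39 ± 0.07 in TC32 (SE, limma adjusted p = 0.000578) and -0.37 ± 0.07 in TC71 (SE, limma adjusted p = 0.00114). Without TC71 control replicate 1 the TC71 change was -0.36 (limma adjusted p = 0.00535), and with arrays centred on hybridization controls it was -0.28 (limma adjusted p = 0.0544).

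The third SP3 set, 232529_at, rose. Its arrays read 5.91, 5.84 and 5.70 in TC32 with mithramycin, against 5.40, 5.11 and 5.38 in TC32 controls. In TC71 they read 6.14, 5.92 and 6.07 with mithramycin, against 5.37, 5.23 and 5.27 in controls. Every treated array was above every control array of its line. The change was 0.52 ± 0.09 in TC32 (SE, limma adjusted p = 0.000735), 1.43-fold, and 0.76 ± 0.09 in TC71 (SE, limma adjusted p = 4.29e-05), 1.69-fold. It was 0.80 in TC71 without control replicate 1 (limma adjusted p = 0.000171), and the rise was called in every alternative fit in each line, at 0.36 to 0.60 in TC32 and 0.71 to 0.84 in TC71. Within arrays its change was 0.88 log2 units above that of 213168_at in each line (exact permutation test, p = 0.005, the smallest possible, adjusted p = 0.01). Which SP3 transcripts the sets follow is not given in the sources used here, and probe sequences were not at hand. A rise of 1 transcript form, a rise at 1 end of the transcripts and other sources of the signal therefore cannot be told apart.

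**Figure D3:**
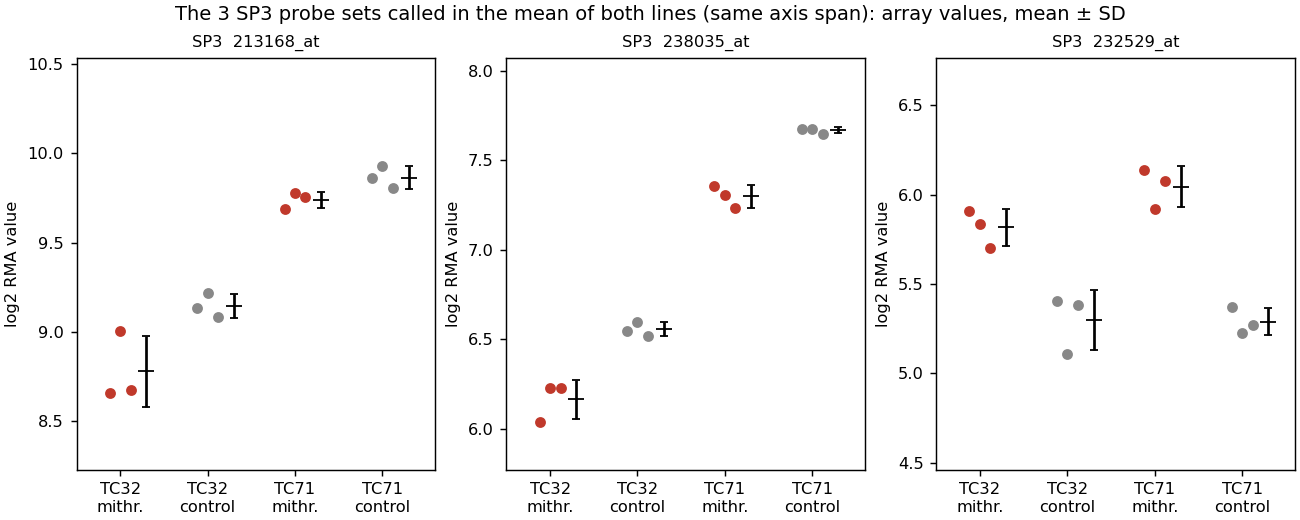
Log2 values of the 3 SP3 probe sets called in the mean of both lines, 1 point per array, with group means ± SD (n = 3) and the same axis span in each panel. Sets 213168_at and 238035_at lie lower with mithramycin than in controls, and set 232529_at lies higher, by 0.52 in TC32 and 0.76 in TC71.

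The remaining SP3 sets were below the array medians. Set 229217_at lay between 4.15 and 4.19 in TC32 with mithramycin, against 3.87 to 4.18 in TC32 controls, and was not called in either line (0.14 in TC32, limma adjusted p = 0.188, and 0.13 in TC71, limma adjusted p = 0.254). Set 227537_s_at was called higher in TC71, at 3.65, 3.86 and 4.04 with mithramycin against 3.46, 3.63 and 3.54 in controls (0.31 ± 0.11 SE, limma adjusted p = 0.047). That call was lost in 13 of 20 alternatives, among them the fit without TC71 control replicate 1 (0.26, limma adjusted p = 0.146). Its TC32 value was -0.01 (limma adjusted p = 0.968).

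SP4, the member best known from the nervous system, was called in TC32 alone. Set 236265_at read 7.09, 7.44 and 7.25 in TC32 with mithramycin, against 7.54, 7.54 and 7.53 in TC32 controls, without overlap. In TC71 it read 7.26, 7.32 and 7.45 with mithramycin, against 7.34, 7.51 and 7.41 in controls, with overlap. The change was -0.28 ± 0.09 in TC32 (SE, limma adjusted p = 0.0264) and -0.08 ± 0.09 in TC71 (SE, limma adjusted p = 0.574, and -0.12 without TC71 control replicate 1). The TC32 call was lost in 7 of 23 alternatives, 5 of which left out an array, and was -0.16 with the values quantile normalized again (limma adjusted p = 0.124). The dim SP4 set 206663_at was not called, at 3.41, 3.24 and 3.05 in TC32 with mithramycin against 3.25, 2.52 and 3.40 in TC32 controls, and 3.76, 3.70 and 3.81 in TC71 with mithramycin against 3.44, 3.32 and 3.65 in TC71 controls (0.18 in TC32, limma adjusted p = 0.473, and 0.28 in TC71, limma adjusted p = 0.281).

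**Figure D4:**
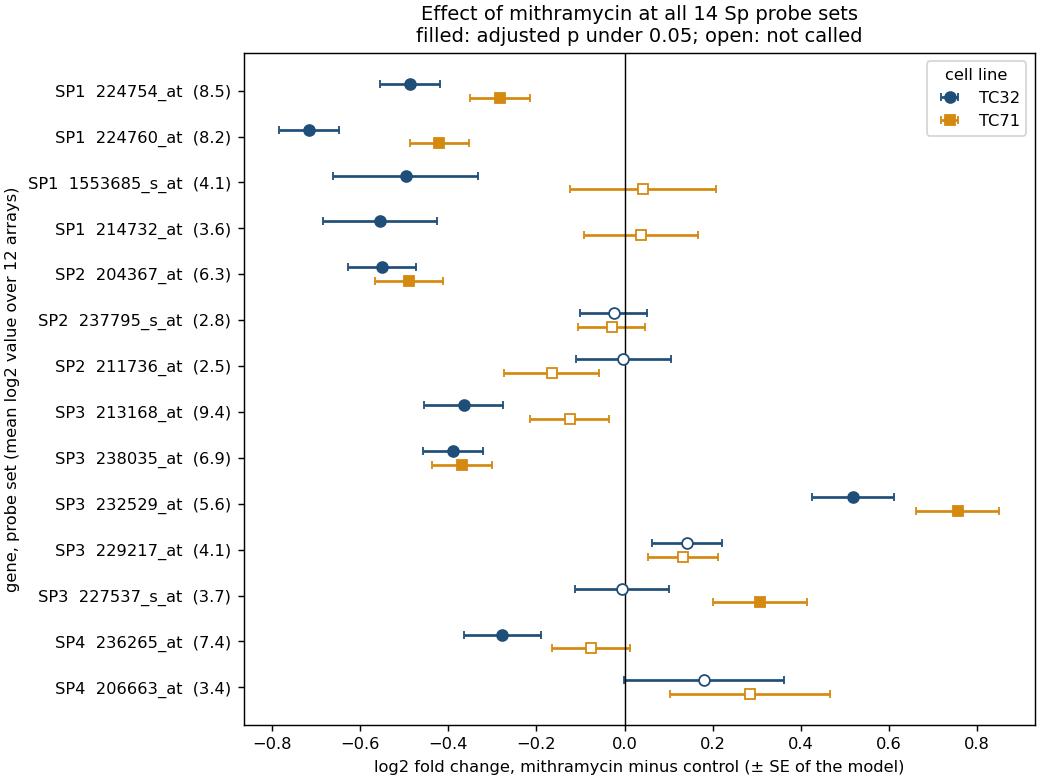
Log2 fold change with mithramycin (± SE of the model, n = 3 arrays per group) at the 14 Sp probe sets, for TC32 (circles) and TC71 (squares). Filled symbols have a limma adjusted p under 0.05, and the number beside each set is its mean log2 value over the 12 arrays. The 6 sets with a mean of at least 6 lie left of 0, and the SP3 set 232529_at lies right of 0 in both lines.

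Whether the brightest sets of the 4 genes changed by the same amount was tested over 6 pairs. The measure was the within-array difference in change averaged over both lines (two-sided exact permutation test within lines). Sets of 1 gene can differ as well. In the mean of both lines, SP3 set 238035_at changed by -0.38, against -0.24 at 213168_at, and the 2 bright SP1 sets differed by -0.18. Differences between genes and differences between probe sets were therefore not told apart. The SP2 set fell by more than the SP3 set, with a mean difference of -0.28 (exact permutation p = 0.01, adjusted p = 0.03), and by more than the SP4 set, with a mean difference of -0.34 (exact permutation p = 0.005, adjusted p = 0.03). The SP2 and SP3 difference was -0.14 with the values quantile normalized again (exact permutation test, adjusted p = 0.06). The differences SP1 minus SP4 (-0.21, exact permutation test, adjusted p = 0.06), SP1 minus SP2 (0.13, adjusted p = 0.142), SP1 minus SP3 (-0.14, adjusted p = 0.15) and SP3 minus SP4 (-0.07, adjusted p = 0.15) did not pass. With the values quantile normalized again, SP1 minus SP4 was -0.26 (exact permutation test, adjusted p = 0.03) and SP3 minus SP4 was -0.17 (adjusted p = 0.015), and both passed. SP1 minus SP4 also passed without TC32 mithramycin replicate 1 (-0.26, exact permutation test, adjusted p = 0.03) and without TC71 control replicate 2 (-0.24, adjusted p = 0.03), as did SP1 minus SP2 without TC32 mithramycin replicate 2 (0.17, adjusted p = 0.04).

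Of the 10 pairs of sets within a gene, 7 set a probe set below the array medians against the brightest set. The difference in change passed in 5 of these 7, at 0.41 for SP4 and between 0.38 and 0.49 over the 5. With the values quantile normalized again, the SP4 pair (0.26, exact permutation test, adjusted p = 0.164) and that of SP2 set 211736_at (0.28, adjusted p = 0.0833) did not pass. Without TC32 mithramycin replicate 1 or TC32 control replicate 2, neither the SP4 pair nor that of SP3 set 227537_s_at passed. The SP4 pair also did not pass without any 1 of the TC71 mithramycin arrays. The size of a change is rough at such dim sets, so these pairs are not read as different behaviour of transcripts. The dim SP1 sets 214732_at and 1553685_s_at changed by -0.56 and -0.50 in TC32 and by 0.04 each in TC71. What lies behind the 5 differences was not tested. Set 238035_at minus 213168_at of SP3 was -0.14 and did not pass (exact permutation test, adjusted p = 0.0938), and without TC32 mithramycin replicate 3 it was -0.18 (adjusted p = 0.0167).

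The TC71 effect minus the TC32 effect was above 0 at 11 of the 14 sets, with a median of 0.20 against -0.01 over all sets. In the test of that difference 0 of the 14 were called in either direction, where 4.38% of all sets were higher and 2.48% lower (limma). At an unadjusted p under 0.05, 3 were higher and 0 lower. These 3 were the SP1 sets 224760_at, 214732_at and 1553685_s_at. At the brightest set of each gene, 0 of the 4 Sp genes were higher and 0 lower at that threshold. Of all 19775 genes at their brightest set, 2181 were higher and 1869 lower at it. With arrays centred on hybridization controls, 93.3% of the calls over all sets at an adjusted p under 0.05 were higher, against 63.8% as deposited. Set 224760_at of SP1 had an adjusted p of 0.0901 (limma, 0.30 ± 0.09 SE), and 0.0654 without TC71 control replicate 1, where again 0 of the 14 were called. With arrays centred on hybridization controls 4 sets were called higher, and with array weights or with trend and robust moderation 2 were.

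Without drug, 2 of the 5 SP3 sets differed between the lines. Sets 213168_at and 238035_at were higher in TC71 control than in TC32 control, by 0.72 ± 0.09 (SE, limma adjusted p = 1.64e-05), 1.65-fold, and by 1.11 ± 0.07 (SE, limma adjusted p = 1.48e-08), 2.16-fold. The set that rose with mithramycin, 232529_at, did not follow them, at -0.01 (limma adjusted p = 0.949), nor did the dim sets 229217_at (0.07, limma adjusted p = 0.551) and 227537_s_at (-0.18, limma adjusted p = 0.212). SP2 set 204367_at was lower in TC71 control, by a difference of -0.43 ± 0.08 (SE, limma adjusted p = 0.000423), which was -0.18 with arrays centred on housekeeping genes (limma adjusted p = 0.0972). SP1 set 224760_at was higher in TC71 control by 0.34 ± 0.07 (SE, limma adjusted p = 0.000847), while SP1 set 224754_at did not pass (0.10, limma adjusted p = 0.301). With the beta-actin value as a covariate, the 224760_at difference was 0.24 (limma adjusted p = 0.12). In all, 3 of the 14 sets were higher and 1 lower in TC71 control, where 20.7% of all sets were higher and 21.9% lower. Without TC71 control replicate 1 these 4 sets kept their calls, at 0.72, 1.11, 0.29 and -0.43 for 213168_at, 238035_at, 224760_at and 204367_at. With arrays centred on housekeeping genes, 79.7% of all calls between the lines were higher, against 48.6% as deposited.

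The order of the 4 groups differed between the brightest sets of the genes, and also between sets of SP3. SP3 set 238035_at had the same order as 213168_at. SP3 set 232529_at had both treated groups on top, at 6.045 ± 0.112 in TC71 and 5.817 ± 0.104 in TC32. Its controls averaged 5.29 ± 0.074 in TC71 and 5.299 ± 0.165 in TC32 (SD, n = 3 each). Differences in order between genes and between probe sets were therefore not told apart. SP3 set 213168_at averaged 9.738 ± 0.047 in TC71 with mithramycin, 9.863 ± 0.063 in TC71 control, 8.78 ± 0.197 in TC32 with mithramycin and 9.144 ± 0.067 in TC32 control (SD, n = 3 each). Both TC71 groups thus stood above both TC32 groups, each line had its control on top, and no neighbouring groups overlapped. SP1 set 224754_at averaged 8.494 ± 0.015 in TC71 with mithramycin, 8.777 ± 0.038 in TC71 control, 8.195 ± 0.071 in TC32 with mithramycin and 8.682 ± 0.102 in TC32 control. Here both control groups, which overlapped each other, stood above both treated groups. SP2 set 204367_at averaged 5.865 ± 0.058 in TC71 with mithramycin, 6.354 ± 0.1 in TC71 control, 6.231 ± 0.111 in TC32 with mithramycin and 6.782 ± 0.062 in TC32 control, and its 2 middle groups, TC71 control and TC32 with mithramycin, overlapped. SP4 set 236265_at averaged 7.344 ± 0.097 in TC71 with mithramycin, 7.421 ± 0.088 in TC71 control, 7.259 ± 0.174 in TC32 with mithramycin and 7.536 ± 0.008 in TC32 control. TC32 control was above the other groups, which overlapped as neighbours in the order TC71 control, TC71 with mithramycin and TC32 with mithramycin. The lowest TC32 control array, at 7.527, was close to the highest TC71 control array, at 7.515. TC71 control minus TC32 control was not called at this set (-0.12, limma adjusted p = 0.339).

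The genes whose values over the 12 arrays lay nearest to those of each brightest Sp set were found by the root mean square difference of mean-centred log2 values, among 8381 candidate genes, those of mean 6 or more. For SP1 they were GTF3C2, a subunit of an RNA polymerase III factor (0.0401), LENG1 (0.0456), ITPK1, an inositol phosphate kinase (0.0565), and CARS1, a cysteinyl-tRNA synthetase (0.0618), against a median of 0.3694 over all candidates. The GTF3C2 values were -0.48 in TC32 and -0.24 in TC71. For SP2 they were the syntaxin STX6 (0.0773), ZNF655 (0.0801), BRI3BP (0.0811) and PRRC2C (0.0831), with TC71 control minus TC32 control values of -0.53 to -0.31. For SP3 they were CCDC138 (0.0579), the RNA-binding protein gene TIA1 (0.063), MBD2, which binds methylated DNA (0.0756), and VCPKMT (0.0829), with TC71 control minus TC32 control values of 0.67 to 0.78. For SP4 they were the lysine methyltransferase gene SETD7 (0.072), DCTN4 of dynactin (0.0721), the spindle checkpoint gene BUB3 (0.0766) and STOML1 (0.0769). Distances between the Sp genes ran from 0.1947 between SP1 and SP4 to 0.6389 between SP2 and SP3. The 4 nearest of 8381 candidates are closer by selection, so the median over candidates is the reference. From SP1, the distances to SP2 (0.3213), SP3 (0.3534) and SP4 were below the SP1 median of 0.3694. From SP2, the distance to SP4 (0.2667) was below the SP2 median of 0.4436, and that to SP3 was above it. Between SP3 and SP4 it was 0.4323, against medians of 0.4969 for SP3 and 0.3235 for SP4. These distances describe 12 arrays that share 2 lines and 1 treatment.

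Lists of genes around the Sp factors were counted in the same fit at the brightest set of each gene. Over all 19775 genes, 23.1% were higher and 18.5% lower in TC32, and 17.0% were higher and 15.3% lower in TC71. The median change over all genes was 0.08 in TC32 and 0.07 in TC71. Most lists below were brighter than that background, where 8386 genes had a mean of at least 6. Such a mean was found for all 25 partners, 16 of 17 modifiers and 29 of 38 GC-box targets. It was found for 9 of 12 other factors of GC-rich motifs and 7 of 17 KLF genes. Among all probe sets of that brightness, 31.3% were lower in TC32 and 25.4% in TC71.

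The 4 measured genes of the other Sp factors, SP5, SP6, SP7 and SP8, had means of 3.597 to 4.5 and no call with mithramycin in either line (limma, 0 of 4 also at an unadjusted p under 0.05). Among the 17 KLF genes, whose products bind related GC-rich sites, 7 were lower and 2 higher in TC32, and 3 were lower and 3 higher in TC71. KLF12, a repressor, changed by -0.71 ± 0.10 in TC32 and -1.55 ± 0.10 in TC71, and KLF13 by -0.98 ± 0.07 and -0.78 ± 0.07. KLF5, an activator in epithelial cells, rose by 0.32 ± 0.09 in TC32 and 0.75 ± 0.09 in TC71 (limma adjusted p = 0.0157 and 3.64e-05).

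Of 12 other factors of GC-rich motifs, 7 were lower and 0 higher in TC32, where 2 more had a positive change at an unadjusted p under 0.05 (limma), and 5 were lower and 2 higher in TC71 (1 higher without TC71 control replicate 1). CTCF, which organizes chromatin loops, fell in both lines, at -1.47 ± 0.07 in TC32 and -0.99 ± 0.07 in TC71. PATZ1 fell in both lines, at -1.21 ± 0.07 in TC32 and -0.64 ± 0.07 in TC71, and ZBTB7A at -0.76 ± 0.08 and -1.04 ± 0.08. ZFX, an X-linked zinc finger activator, fell in both lines, at -1.0 ± 0.13 in TC32 and -0.55 ± 0.13 in TC71, at a set that can also bind transcripts of similar sequence.

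The partners of Sp proteins, coactivators and factors known to bind them, included the gene with the deepest fall among those named here, TAF4. Of 25, 14 were lower and 2 higher in TC32, and 13 were lower and 3 higher in TC71, with median changes of -0.29 and -0.20. Without the sets that can bind several transcripts (suffixes _x_at and _s_at), 8 of 23 were lower in each line, and with arrays centred on hybridization controls 7 of 25 were lower in TC71. TAF4, the TFIID subunit through which SP1 contacts the general transcription machinery, read 5.33, 5.48 and 5.24 in TC32 with mithramycin, against 7.58, 7.60 and 7.48 in TC32 controls. Its TC71 arrays read 5.50, 5.30 and 5.25 with mithramycin, against 7.63, 7.67 and 7.70 in controls. TAF4 thus fell in both lines, at -2.20 ± 0.08 in TC32 (SE, limma adjusted p = 1.24e-09) and -2.31 ± 0.08 in TC71 (SE, limma adjusted p = 1.14e-09). In the mean of both lines this was -2.26, against -0.57 at SP1 set 224760_at, and the second TAF4 set, which was dimmer, had 0.05.

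The acetyltransferase genes on the partner list fell too. CREBBP fell in both lines, at -2.14 ± 0.11 in TC32 and -1.95 ± 0.11 in TC71, and EP300 at -0.93 ± 0.07 and -0.81 ± 0.07. SMAD3, which carries TGF-beta signals to SP1 sites, fell in both lines, at -1.05 ± 0.09 in TC32 and -1.23 ± 0.09 in TC71.

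Of 17 measured genes for enzymes that modify Sp proteins, 7 were lower and 3 higher in TC32, and 6 were lower and 1 higher in TC71. With trend and robust moderation 5 were higher in TC71, and among the 16 with a mean of at least 6, 4 were. The kinase gene GSK3B fell in both lines, at -1.22 ± 0.09 in TC32 and -1.20 ± 0.09 in TC71. BTRC, a substrate receptor of a ubiquitin ligase, fell in both lines, at -0.80 ± 0.07 in TC32 and -1.14 ± 0.07 in TC71. The SUMO protease gene SENP1 fell in both lines, at -1.11 ± 0.08 in TC32 and -0.64 ± 0.08 in TC71, and RNF4, a ligase for proteins that carry SUMO, at -1.02 ± 0.06 and -0.70 ± 0.06.

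Of 38 known GC-box target genes, 13 were lower and 4 higher in TC32, and 9 were lower and 6 higher in TC71, with median changes of -0.08 and -0.01. Of these, 12 were called in the same direction in both lines, as were 23.3% of all genes. Without TC71 control replicate 1, 9 were lower and 3 higher in TC71. The growth factor receptor gene IGF1R fell in both lines, at -1.08 ± 0.09 in TC32 and -2.13 ± 0.09 in TC71, and the survival gene BCL2 at -1.45 ± 0.10 and -1.51 ± 0.10. The drug transporter gene ABCC1 fell in both lines, at -1.09 ± 0.06 in TC32 and -1.53 ± 0.06 in TC71, and VEGFA, which drives vessel growth, at -0.95 ± 0.07 and -0.70 ± 0.07. Apart from KLF5, whose values are given above, the genes named from the lists had a limma adjusted p of 0.005 or less in each line. Without TC71 control replicate 1 the TC71 values of these genes moved by at most 0.08, and each was still called. Of the 18 named list genes that fell, 16 had more than 1 set. Among these 16, 12 had another set with a change above 0 in the mean of both lines, between 0.03 and 0.18. The median of all sets was 0.06, and these differences between sets were not tested.

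**Figure D5:**
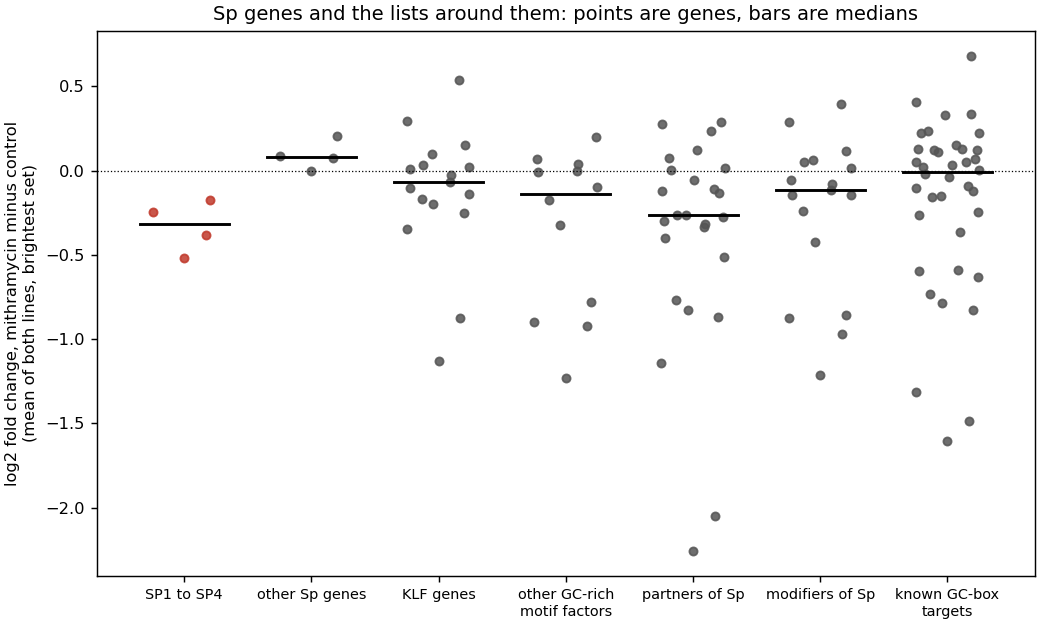
Log2 fold change with mithramycin, mean of TC32 and TC71, for SP1 to SP4 and the genes of the 6 lists around them, 1 point per measured gene at its brightest set, with a bar at the median. SP1 to SP4 lie between -0.52 and -0.18, and the partner list reaches -2.26 at TAF4.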

How the data were processed

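Each of the 12 samples was run on 1 array. The deposited values are log2 values, 1 per probe set and array, made by the authors with RMA (robust multi-array average) per the submitters' processing notes; its version and settings were not in these sources. The method removes background, gives all arrays the same distribution of probe values and summarizes each set, so a shift shared by most genes is largely lost and every change is one against the rest of the array. Neither detection calls nor batch labels nor scan dates were used, so batches were not tested, and the number of arrays limits the precision.

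Of 54675 probe sets, 62 controls were left out. Platform annotation gave 1 symbol to 41091 sets, several to 1801 and none to 11721; symbols were updated through a RefSeq table of GRCh38.p14 (41037 sets matched), which served for names. A gene was represented by its set with the highest mean. All 12 arrays entered 1 model with a mean per group (R 4.3.3, limma 3.58.1), which was tested on simulated data. Adjusted p-values are Benjamini-Hochberg over the 54613 sets of a contrast, and a set was called under 0.05. Exact permutation tests moved treatment labels within lines. Groups came from the sample labels.

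The members and lists were chosen with earlier results of these data known. Every set of SP1 to SP4 was named; from each list, up to 4 genes with the largest mean effect among those called in the same direction in both lines; and for each Sp gene the 4 nearest genes, as well as the marker genes by level. Alternatives were array weights, trend and robust moderation, repeated quantile normalization, centring on 14 housekeeping genes or 18 hybridization control sets, each line alone, brightest sets only, a mean of at least 6, no _x_at or _s_at sets, a replicate block and each array left out; the beta-actin covariate was added after seeing the data.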

Additional observations from a re-analysis of the deposited data

Results flagged for a closer look

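None of the 14 Sp probe sets was called in the test of the difference between lines (limma), and groups of 3 arrays are too small for the check on single outlying samples. Among the genes named from the lists, 8 differed between the lines in that test, given as TC71 effect minus TC32 effect with limma's adjusted p. The fall in TC71 was deeper than in TC32 for KLF12 (-0.85, adjusted p = 0.00223), BTRC (-0.34, adjusted p = 0.0438), IGF1R (-1.05, adjusted p = 0.000196) and ABCC1 (-0.44, adjusted p = 0.00581). It was shallower for CTCF (0.48, adjusted p = 0.00627), PATZ1 (0.57, adjusted p = 0.0024), SENP1 (0.47, adjusted p = 0.0178) and RNF4 (0.32, adjusted p = 0.0421).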

How the results depend on the processing

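The fall of SP1 set 224760_at and SP2 set 204367_at and the rise of SP3 set 232529_at were called in each line in every alternative run, and in TC32 so were the falls of SP1 sets 224754_at and 214732_at and SP3 sets 213168_at and 238035_at. In TC32, 1 set was higher and 8 lower as reported, against 0 and 4 with 4 brightest sets alone, and 0 higher with a mean of at least 6. In TC71, 2 were higher and 4 lower, against 0 and 2 with brightest sets alone, 0 higher with a mean of at least 6, 2 lower with hybridization centring, and 1 higher with the beta-actin covariate, housekeeping centring, repeated quantile normalization, trend and robust moderation or without _x_at and _s_at sets. In the mean of both lines, 1 was higher and 7 lower, against 3 higher with array weights, 4 lower with the beta-actin covariate, 0 and 4 with brightest sets alone and 0 higher with a mean of at least 6. For the difference of effects 0 were higher, against 2 with array weights, 2 with trend and robust moderation, 4 with hybridization centring and 1 with a mean of at least 6. Between control lines 3 were higher and 1 lower, against 1 higher with brightest sets alone and 10 higher and 0 lower with housekeeping centring, which moved the median of all sets to 0.22, against -0.04 as deposited. That setting turned SP3 set 232529_at to 0.24 and SP2 set 237795_s_at to 0.22 (limma adjusted p = 0.0379 and 0.0428). Hybridization centring moved the median of all sets to -0.09 in TC32, 0.14 in TC71 and 0.22 in the difference of effects. Fewer sets entered with brightest sets alone or above a mean of 6; for the other settings the cause was not tested. Leaving out each array in turn gave 1 higher and 6 to 8 lower in TC32, 1 to 2 higher and 4 lower in TC71, 1 to 2 higher and 5 to 7 lower in the mean, 0 to 2 higher in the difference, and 3 to 4 higher and 1 lower between control lines. The 1 higher set in TC71 was reached without TC71 control replicate 1, 2 or 3, TC71 mithramycin replicate 2 or 3, TC32 control replicate 1 or 3, or TC32 mithramycin replicate 1, each of which ended the call of SP3 set 227537_s_at, and the 2 higher sets in the difference without TC32 mithramycin replicate 2. In the mean of both lines, the call of SP4 set 236265_at was lost in 12 of 22 alternatives and that of SP1 set 214732_at in 9 of 20; that of SP3 set 213168_at was lost with the beta-actin covariate (limma adjusted p = 0.0507). Same-numbered samples deviated with correlations of 0.0266 to 0.2107 in TC32 and -0.0865 to -0.0182 in TC71. Differently numbered samples gave -0.1704 to 0.1085 in TC32 and -0.0418 to 0.0711 in TC71. Deviations from a mean of 3 arrays are tied to each other, so these values cannot decide whether the numbers pair the samples. With the replicate number as a block, 1 set was higher and 8 lower in TC32, 2 and 4 in TC71, 1 and 6 in the mean and 0 in the difference. Fits that left out an array aside, the list counts moved by over 1.5 times in 45 combinations of a count and an alternative. Some counts moved in several alternatives. With hybridization centring 0 KLF, partner and modifier genes were higher in TC32.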
